A study of Mus musculus with 6 samples.

Results

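Cadherins are transmembrane proteins whose extracellular domains bind those of neighbouring cells in the presence of calcium. The 33 genes described here come from the classical cadherins, T-cadherin, the protocadherins that lie outside the protocadherin gene clusters, and the Celsr and Fat cadherins. Some genes of these classes, such as Cdh19 and Pcdh11x, are not among them. Levels and shares of the family or of a subfamily cover the 33 only. The 33 genes were chosen by name, and all 33 of 33 were found by their Ensembl identifiers among the 41388 genes of the deposited count files. They were grouped by textbook subfamily into 5 classical type I cadherins, 11 classical type II cadherins, T-cadherin, 3 delta-1 protocadherins, 5 delta-2 protocadherins, 2 other protocadherins, 3 Celsr cadherins and 3 Fat cadherins.

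RNA was sequenced from fluorescence-sorted cells of dorsal root ganglia, the clusters of sensory neuron cell bodies beside the spinal cord, dissected at levels T11-S1 from mouse embryos at 18.5 days post coitum (dpc). There were 6 libraries, 3 of males (A, C and D) and 3 of females (A, B and C), each from a pool of 20 to 60 ganglia of 1 to 3 embryos. All embryos carried EGFP under the control of Ret, the receptor of the GDNF family of neurotrophic factors, on a C57BL/6 background. The labels give the genotype as Tg(Ret-EGFP)SJ, while the study's design text describes heterozygotes with EGFP placed in the Ret locus and the strain as C57BL/6J. No untreated or reporter-free group was among the libraries, so the comparisons are between genes, between libraries and between the sexes. The replicates are libraries of different embryos, so each p-value measures the spread between such libraries. Females B and C held 1 embryo each and the other libraries 2 or 3, so this spread mixes single embryos and pools.

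Classical cadherins of both types carry a cytoplasmic tail that binds beta-catenin and p120-catenin, which link junctions to actin, and they sort cells and match axons to targets. Delta-protocadherins have other cytoplasmic motifs, part of which recruit the WAVE complex that drives actin branching, and they act in axon growth and synapse formation. Celsr and Fat proteins are very large cadherins best known from planar cell polarity, and Celsr genes are needed for the growth of several axon tracts. In sensory ganglia, cadherins are known from neurons, satellite glia and Schwann cells alike.

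Total counts were 17861500 to 29330101 per library, lowest in male A and highest in male C, and a gene with a count of 0 could have had up to 3 counts, which is 0.102 to 0.168 CPM (counts scaled to a common library total). Molecules were not tagged before amplification, so this limit covers counting error only. The libraries held RNA of sensory neurons, with Stmn2 at 2293 to 3516 and Tubb3 at 1664 to 3019 RPKM. Ret, named as the reporter's locus, was at 20.1 to 28.7 RPKM. Male A stood apart by markers of other cell types. Its summed level of 14 satellite glia and Schwann cell markers was 1237 RPKM against 663 to 779 RPKM in the other 5 libraries, with Apoe at 486.7 against 69.2 to 172 RPKM. The 12 fibroblast and meningeal markers summed to 451.9 RPKM in male A against 169 to 226 RPKM, with Col1a1 at 111 against 5.28 to 13.0 RPKM. The 10 endothelial and pericyte markers summed to 22.4 against 8.63 to 17.6 RPKM, and the 10 leukocyte markers to 15.0 against 8.75 to 13.3 RPKM. Not every marker followed: Fabp7 was lowest in male A, at 269.5 against 331 to 439 RPKM, and Dcn, at 138 RPKM, lay within the 129 to 190 RPKM of the others. Pdgfrb was at 7.03 against 3.23 to 5.59 RPKM and Rgs5 within the range of the others. The leukocyte genes Fcer1g and C1qb reached at most 11.2 and 1.73 RPKM, and the globin genes Hbb-bs and Hbb-bt 37.5 and 15.2 RPKM.

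To set the genes of the family against each other, levels were expressed as RPKM, the CPM per kilobase of exon with TMM-scaled library sizes, and all means are over the 6 libraries with their SD. The family was led by a small number of genes. Cdh11, Pcdh9, Cdh1, Cdh6, Cdh2 and Cdh8 together carried 71.1% ± 3.20 (SD, n = 6) of the summed level of all 33 genes, which was 141.6 ± 19.0 RPKM. Their share lay between 64.8% and 73.2% in the 6 libraries. In all, 5 genes had a mean of at least 10 RPKM and 22 a mean of at least 1 RPKM. The median gene among all 14958 genes tested was at 4.07 RPKM, and 30.8% of those genes were at 10 RPKM or higher.

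**Figure D1:**
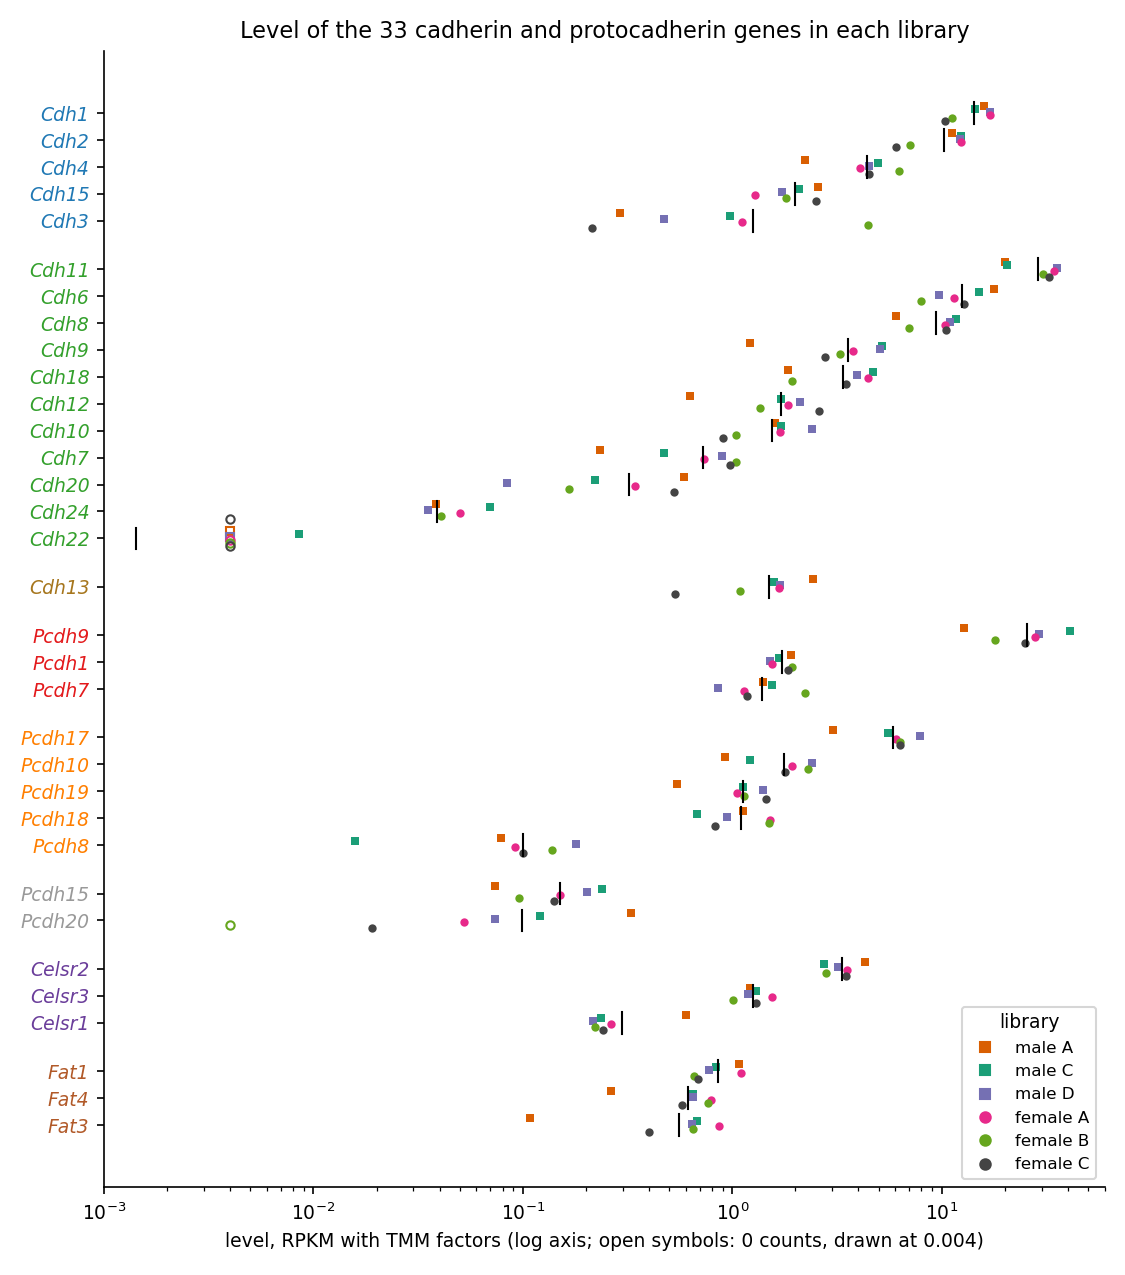
Level of each of the 33 genes (rows, grouped and coloured by subfamily) in each of the 6 libraries (squares males, circles females) as RPKM with TMM factors on a log axis, with the mean as a vertical bar and libraries without a count as open symbols. Levels ran from a mean of 28.9 RPKM for Cdh11 to a single count for Cdh22, and the orange squares of male A often lay at the left end of a row.

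The order of levels was loose within the family. Of the 32 pairs of neighbours in the order of means, only Celsr2 and Cdh15 had ranges over the 6 libraries that did not overlap. In 3 pairs the upper gene was higher in every library (Cdh8 over Pcdh17, Pcdh17 over Cdh4 and Celsr2 over Cdh15). Cdh11 was the highest member in 5 of 6 libraries, and Pcdh9 was in male C.

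The order also rests on the gene lengths in the files. In GENCODE M21 the exons of Cdh6 are 3.43 times as long as the length in the files, those of Cdh11 2.11 times and those of Pcdh9 1.83 times. With M21 lengths, which give a lower bound for such genes, Cdh1 came first at 14.3 RPKM, followed by Pcdh9 at 14.0 RPKM and Cdh11 at 13.7 RPKM. Cdh6 moved from rank 4 to rank 8, at 3.63 RPKM.

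Type I cadherins are the founding members of the family, and all 5 were detected in every library. Their summed level was 32.2 ± 4.68 RPKM, 22.9% ± 3.56 of the family. Cdh1 encodes E-cadherin, the main adhesion protein of epithelia (chr8:106603351-106670246, plus strand, GRCm38). Its level was 16.0, 14.3 and 17.0 RPKM in males A, C and D and 17.0, 11.2 and 10.4 RPKM in females A, B and C, a mean of 14.3 ± 2.93 RPKM. Males and females overlapped, and females B and C lay below the other 4 libraries.

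Of 8 other epithelial markers, 3 passed the filter on low counts. Krt19, the highest, had a mean of 1.19 RPKM and Cldn3 one of 0.420 RPKM, while Krt5 had no count in any library. Cdh1 exceeded the 8 markers' summed level, 2.12 to 3.06 RPKM, in every library.

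Cdh2 encodes N-cadherin, the type I cadherin typical of neurons and glia (chr18:16588877-16809246, minus strand). It was at 11.2, 12.3 and 12.3 RPKM in males A, C and D and 12.4, 7.06 and 6.02 RPKM in females A, B and C, a mean of 10.2 ± 2.90 RPKM. The 4 libraries other than females B and C lay within 11.2 to 12.4 RPKM. Per length, Cdh1 was higher than Cdh2 in 6 of 6 libraries, by 1.16 to 1.72 times.

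Cdh4, which encodes R-cadherin, first described in the retina, was at 2.22, 4.98 and 4.47 RPKM in males A, C and D and 4.07, 6.25 and 4.51 RPKM in females A, B and C. It was lowest in male A and highest in female B, a range of 2.81 times. Cdh15 encodes M-cadherin, known from skeletal muscle precursors. It was at 2.57, 2.07 and 1.72 RPKM in males A, C and D and 1.28, 1.81 and 2.52 RPKM in females A, B and C, and no library stood apart. Among the 8 skeletal muscle markers, Acta1 led at a mean of 6.87 RPKM, Myf5 followed at 0.154 RPKM and Myog had no count. Cdh3 encodes P-cadherin, an epithelial cadherin whose gene is the neighbour of Cdh1. It was at 0.289, 0.972 and 0.470 RPKM in males A, C and D and 1.11, 4.44 and 0.214 RPKM in females A, B and C. The level in female B was the highest by far, so that the mean of 1.25 ± 1.61 RPKM described no library well. The 8 epithelial markers summed to 2.89 RPKM in female B, inside the range of the other libraries. Krt8 and Krt14 were highest in female B, at 0.245 and 0.220 RPKM, with at most 8 and 7 counts in any library. Krt19, Cldn3, Epcam, Krt18 and Cldn7 were not highest there. A relation of these markers to the Cdh3 level was not tested.

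Type II cadherins carry most of the family's diversity in the nervous system, where different members mark different neuron pools. With 62.0 ± 8.47 RPKM, 43.9% ± 3.18 of the family, they formed the subfamily with the highest summed level, and 7 of 11 had a mean of at least 1 RPKM. Cdh11 encodes OB-cadherin, known from mesenchymal cells and also from neurons (chr8:102632995-102785111, minus strand). It was at 20.0, 20.6 and 35.4 RPKM in males A, C and D and 34.5, 30.3 and 32.5 RPKM in females A, B and C. Males A and C lay below the other 4 libraries. The sum of the fibroblast and meningeal markers was highest in male A, at 451.9 RPKM, and lowest in male C, at 169.1 RPKM. A relation of these markers to the Cdh11 level was not tested.

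Cdh6, known as K-cadherin and found in kidney and in neural crest derivatives (chr15:13034200-13173639, minus strand), was at 17.7, 15.1 and 9.72 RPKM in males A, C and D and 11.4, 7.94 and 12.8 RPKM in females A, B and C. It was highest in male A and lowest in female B, 2.23 times apart. Cdh8, a cadherin of synapses that is known in sensory afferents of the cold pathway (chr8:99024471-99416471, minus strand), was at 6.02, 11.7 and 10.9 RPKM in males A, C and D and 10.3, 6.94 and 10.4 RPKM in females A, B and C. Male A and female B were low, and the other 4 libraries lay within 10.3 to 11.7 RPKM. With the lengths in the files Cdh11 was higher than Cdh8 in every library, and Cdh8 reached 0.229 to 0.571 times its level. In GENCODE M21 the exons of Cdh11 are 2.11 times as long and those of Cdh8 unchanged. The order of these genes in single libraries therefore rests on the lengths in the files.

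Lower type II genes followed. Cdh9 and Cdh10 lie near each other on chromosome 15. Cdh9 was at 1.22, 5.19 and 5.06 RPKM in males A, C and D and 3.79, 3.27 and 2.78 RPKM in females A, B and C, and Cdh10 at 1.61, 1.71 and 2.39 RPKM in males A, C and D and 1.68, 1.05 and 0.901 RPKM in females A, B and C. Male A was the lowest library for Cdh9, and Cdh10 was lowest in females B and C. Cdh12 and Cdh18 are another pair on that chromosome. Cdh18 was at 1.84, 4.71 and 3.95 RPKM in males A, C and D and 4.44, 1.92 and 3.51 RPKM in females A, B and C, and Cdh12 at 0.630, 1.71 and 2.10 RPKM in males A, C and D and 1.85, 1.35 and 2.58 RPKM in females A, B and C. Cdh18 was higher than Cdh12 in 6 of 6 libraries, by 1.36 to 2.91 times, and both were lowest in male A.

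Cdh7 and Cdh20 lie on chromosome 1. Cdh7 was at 0.234, 0.470 and 0.897 RPKM in males A, C and D and 0.732, 1.04 and 0.972 RPKM in females A, B and C. Cdh20 was at 0.586, 0.221 and 0.0836 RPKM in males A, C and D and 0.341, 0.165 and 0.524 RPKM in females A, B and C, from 7 counts in male D to 45 counts in male A. They were at opposite ends in male A, where Cdh7 had its lowest and Cdh20 its highest level.

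Type II members also included the lowest of the family. Cdh24 had 2, 6 and 2 counts in males A, C and D and 3, 2 and 0 counts in females A, B and C. Only male C was above the limit of 3 counts. Cdh22 had 1 count in male C and 0 counts in the other 5 libraries (chr2:165111507-165234853, minus strand). It was the only member with fewer than 3 counts in every library, which leaves it not detectable at this depth, where 0 counts allowed up to 0.138 to 0.168 CPM in those 5 libraries.

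The promoters of high and low members are set side by side because they show how the bases before the start differ between members far apart in level. RefSeq (GRCm38.p6) gave a promoter for 25 of the 33 genes. The window here is the 250 bases before the start, CG dinucleotides are in capitals, and each sequence runs 5′ to 3′ on the gene's strand. Cdh8 (chr8:99416472-99416721, minus strand) and Cdh24 (chr14:54641365-54641614, minus strand) are type II genes with a mean of 9.40 and 0.0390 RPKM. Pcdh9 (chr14:93890680-93890929, minus strand) and Pcdh8 (chr14:79771313-79771562, minus strand) are delta-protocadherins at 25.6 and 0.101 RPKM. The RefSeq start of Pcdh9 lies before the gene span of the count files.
Cdh8: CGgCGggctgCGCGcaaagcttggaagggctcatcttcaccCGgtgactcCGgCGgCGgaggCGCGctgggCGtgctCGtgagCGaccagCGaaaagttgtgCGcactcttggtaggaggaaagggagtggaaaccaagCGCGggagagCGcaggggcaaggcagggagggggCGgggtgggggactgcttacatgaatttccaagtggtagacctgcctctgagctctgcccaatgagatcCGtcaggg
Cdh24: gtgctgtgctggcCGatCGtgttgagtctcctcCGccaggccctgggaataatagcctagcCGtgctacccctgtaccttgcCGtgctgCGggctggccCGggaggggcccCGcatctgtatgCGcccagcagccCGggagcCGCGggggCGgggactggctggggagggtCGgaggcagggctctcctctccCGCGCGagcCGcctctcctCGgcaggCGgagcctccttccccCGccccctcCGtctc
Pcdh9: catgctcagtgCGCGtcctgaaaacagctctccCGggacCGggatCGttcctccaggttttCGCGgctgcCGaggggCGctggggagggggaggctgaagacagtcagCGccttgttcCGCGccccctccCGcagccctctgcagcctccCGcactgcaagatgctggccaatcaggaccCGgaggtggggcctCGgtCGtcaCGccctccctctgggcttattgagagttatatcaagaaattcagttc
Pcdh8: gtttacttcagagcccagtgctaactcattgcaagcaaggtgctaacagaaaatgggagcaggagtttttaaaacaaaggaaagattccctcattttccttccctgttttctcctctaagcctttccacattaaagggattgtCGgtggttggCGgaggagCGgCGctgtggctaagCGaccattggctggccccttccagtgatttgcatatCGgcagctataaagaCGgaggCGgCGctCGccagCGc
The motif, the letters CG, reads the same on both strands. It occurred 20 times in the Cdh8 window, 22 times in that of Cdh24, 18 times in that of Pcdh9 and 11 times in that of Pcdh8. Of 27025 genes with a promoter in the table, 17.7%, 14.6%, 21.6% and 36.0% held at least as many. At least 1 CG was in 91.7% of these promoters and in 25 of 25 of the members'. The members' counts ran from 2 (Cdh10 and Fat1) to 32 (Celsr2), and the undetected Cdh22 held 30, more than any other member but Celsr2. Its sequence is not printed because 116 of its 250 bases lie in an exon of Cdh22 in GENCODE M21. Windows of some other members also lie partly or wholly in exons of their own gene, among them Cdh15 (250 bases) and Cdh9 (159 bases). Each member was counted once, although Cdh7 had windows with 13, 17 and 3 CG. The genes Cdh1, Cdh2, Cdh3, Cdh4, Cdh11, Cdh13, Celsr1 and Pcdh1 had no entry.

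Cdh13 encodes T-cadherin, which is anchored to the membrane by a lipid and has no cytoplasmic tail. It was at 2.42, 1.58 and 1.68 RPKM in males A, C and D and 1.67, 1.09 and 0.530 RPKM in females A, B and C. Male A was highest and female C lowest, with a range of 4.56 times.

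Delta-1 protocadherins have the longer of the delta type ectodomains. The 3 genes summed to 28.8 ± 9.56 RPKM, 19.9% ± 4.64 of the family, most of it Pcdh9. Pcdh9 (chr14:93015512-93888732, minus strand) was at 12.8, 41.0 and 29.2 RPKM in males A, C and D and 27.9, 17.9 and 25.1 RPKM in females A, B and C, a mean of 25.6 ± 9.79 RPKM. Male C was highest and male A lowest, 3.21 times apart, so that a single sex held both ends. Pcdh1 was at 1.90, 1.68 and 1.51 RPKM in males A, C and D and 1.55, 1.92 and 1.84 RPKM in females A, B and C. It varied least of all tested members, by 1.27 times between its lowest and highest library. Pcdh7 was at 1.41, 1.55 and 0.850 RPKM in males A, C and D and 1.13, 2.22 and 1.18 RPKM in females A, B and C, highest in female B. Pcdh9 was 6.73 to 24.4 times as high as Pcdh1.

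Delta-2 protocadherins summed to 9.93 ± 2.49 RPKM, 7.00% ± 1.57 of the family. Pcdh17, known for sorting and bundling axons, led them at 3.02, 5.55 and 7.85 RPKM in males A, C and D and 6.08, 6.32 and 6.32 RPKM in females A, B and C. Pcdh10, also known as OL-protocadherin, was at 0.919, 1.21 and 2.41 RPKM in males A, C and D and 1.92, 2.30 and 1.78 RPKM in females A, B and C. Male A was lowest for both, and Pcdh17 was 2.75 to 4.59 times as high as Pcdh10 in all 6 libraries. Pcdh19, the X-linked member known from an epilepsy of girls, was at 0.543, 1.13 and 1.41 RPKM in males A, C and D and 1.05, 1.14 and 1.45 RPKM in females A, B and C. Pcdh18 was at 1.12, 0.680 and 0.946 RPKM in males A, C and D and 1.51, 1.5 and 0.823 RPKM in females A, B and C. Pcdh19 was lowest in male A, while Pcdh18 was lowest in male C and its sexes overlapped. Pcdh8, an activity-regulated protocadherin of synapses, was low, with 6, 2 and 15 counts in males A, C and D and 8, 10 and 8 counts in females A, B and C.

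The remaining protocadherins among the 33 genes were low. Pcdh15, which forms the tip links of hair cells together with Cdh23, was at 0.0736, 0.238 and 0.203 RPKM in males A, C and D and 0.151, 0.0959 and 0.141 RPKM in females A, B and C. Male A was lowest and male C highest. Pcdh20 had 33, 20 and 8 counts in males A, C and D and 6, 0 and 2 counts in females A, B and C. It ran from 0 counts in female B to 33 counts in male A, where other cell types' markers were also high. Whether those cells account for its counts was not tested.

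Celsr cadherins are receptors with 7 membrane passes that act in planar polarity, and they summed to 4.90 ± 0.770 RPKM, 3.55% of the family. Celsr2 led at 4.31, 2.73 and 3.19 RPKM in males A, C and D and 3.54, 2.82 and 3.49 RPKM in females A, B and C. Celsr3, a gene of axon guidance, was at 1.22, 1.30 and 1.18 RPKM in males A, C and D and 1.55, 1.01 and 1.30 RPKM in females A, B and C. Both varied little between libraries, and Celsr2 was 2.09 to 3.54 times as high as Celsr3 in 6 of 6 libraries. Celsr1, best known from epithelia and progenitor cells, was at 0.600, 0.235 and 0.217 RPKM in males A, C and D and 0.264, 0.220 and 0.240 RPKM in females A, B and C. Male A stood above the narrow range of the other 5 libraries.

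Fat cadherins are very large proteins with long extracellular domains, and they summed to 2.03 ± 0.450 RPKM, 1.43% of the family. Fat1 was at 1.08, 0.834 and 0.772 RPKM in males A, C and D and 1.10, 0.653 and 0.684 RPKM in females A, B and C. Fat4, the receptor of Dchs1, was at 0.265, 0.649 and 0.648 RPKM in males A, C and D and 0.790, 0.767 and 0.574 RPKM in females A, B and C, and Fat3, known from retinal neurons, at 0.108, 0.677 and 0.644 RPKM in males A, C and D and 0.863, 0.647 and 0.399 RPKM in females A, B and C. Fat3 and Fat4 were lowest in male A, Fat3 with 38 counts, while Fat1 was close to its highest level there.

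Across subfamilies, type II had the highest sum in every library with the lengths in the files. With those lengths, type II cadherins exceeded type I in 6 of 6 libraries, by 1.55 times in male A to 2.84 times in female C. Classical cadherins of both types exceeded delta-protocadherins in 6 of 6, by 1.82 times in male C to 3.78 times in male A. Delta-1 exceeded delta-2 protocadherins in 6 of 6, by 1.93 to 5.15 times. Type I and delta-1 sums had no fixed order, since type I was higher in 4 of 6 libraries. Without division by length, delta-2 protocadherins took 11.4% and delta-1 protocadherins 14.6% of the summed CPM. With M21 lengths type I took 31.4% ± 4.53 and type II 36.6% ± 3.53 (mean and SD over the libraries). The order of type I and type II in single libraries therefore rests on the lengths in the files. Without male A, delta-protocadherins took 28.5% of the summed level and type II cadherins 43.9%.

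**Figure D2:**
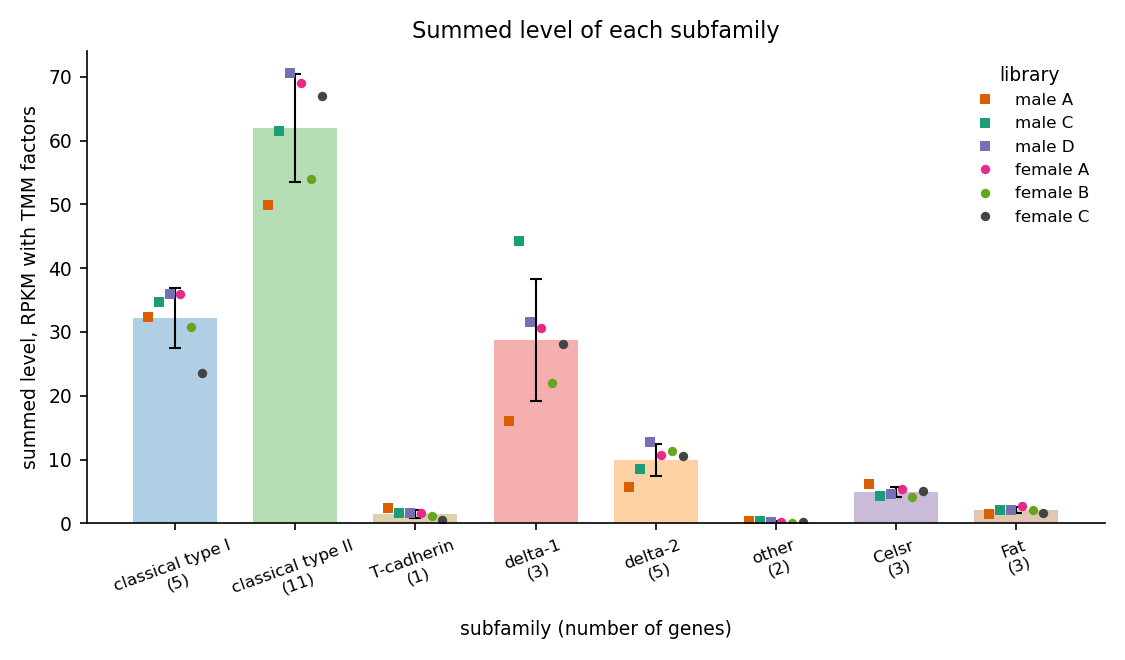
Summed RPKM of each subfamily (bars, mean; error bars, SD over 6 libraries; symbols, the libraries), with the number of genes in brackets. Type II cadherins had the highest sum at 62.0 RPKM, and delta-1 protocadherins ranged from 16.1 RPKM in male A to 44.2 RPKM in male C.

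The median member varied more between the libraries than the median tested gene. Of the 33 genes, 29 passed the filter on low counts, and Pcdh8, Pcdh20, Cdh24 and Cdh22 did not. The median SD of log2 CPM over the 6 libraries was 0.51 for the 29 and 0.36 for all 14958 tested genes, and 5 of 29 members lay below the latter. These were Pcdh1 (0.15), Celsr3 (0.20), Celsr2 (0.24), Cdh1 (0.31) and Fat1 (0.32). Cdh3 varied most (1.54), followed by Fat3 (1.08) and Cdh20 (0.96). An SD of at least that of Cdh3 was found in 0.735% of the tested genes and one of at least that of Pcdh1 in 93.3%. No test was made of this difference.

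**Figure D3:**
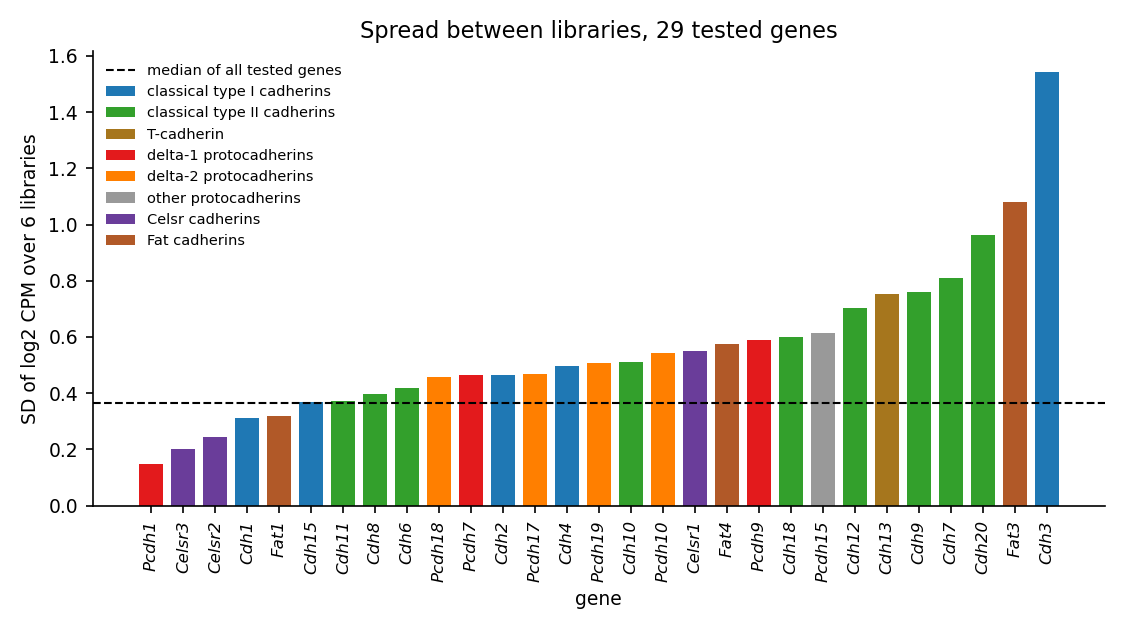
SD of log2 CPM over the 6 libraries (vertical axis) of the 29 tested genes, coloured by subfamily, with the median of all 14958 tested genes as a dashed line at 0.36. Pcdh1, Celsr3, Celsr2, Cdh1 and Fat1 lay below the line and the other 24 above it.

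The spread was smaller without male A, where the median SD was 0.36 for the members and 0.29 for all tested genes and 8 of 29 members lay below the latter. In male A, 13 of 29 members were under 0.5 times the median of the other 5 libraries, while 11.1% of all tested genes were. They were Cdh3, Cdh4, Cdh7, Cdh9, Cdh12, Cdh18, Pcdh9, Pcdh10, Pcdh17, Pcdh19, Pcdh15, Fat3 and Fat4. Fat3 was at 0.166 times that median, Cdh7 at 0.261 times, Cdh3 at 0.298 times and Cdh9 at 0.322 times. Cdh20 at 2.65 times and Celsr1 at 2.56 times were the 2 of 29 above 2 times, against 9.06% of the tested genes. The median of this ratio was 0.617 over the members and 0.992 over all tested genes. These counts are a description of 1 library, with no test.

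Male A held the lowest of the 6 levels for 14 of 29 members, against 28.4% of the tested genes, and the highest for 6 of 29, against 31.1%. The 6 were Cdh6, Cdh13, Cdh15, Cdh20, Celsr1 and Celsr2. Of 12 sensory neuron markers, 9 were lowest in male A and 1 (Prph) was highest there, and their median ratio was 0.791. Their summed level in male A, 6636 RPKM, lay within the 6589 to 9349 RPKM of the other 5 libraries. Most of that sum was Stmn2, at 2293 RPKM, and Tubb3, at 2497 RPKM. For satellite glia and Schwann cells 10 of 14 markers were highest in male A, for fibroblasts and meninges 8 of 10 tested and for endothelium and pericytes 8 of 9 tested. In bulk RNA, fewer cells of a type and less RNA per cell cannot be told apart. The part of the other cells in the low levels was not tested.

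The members have long genes, with a median of 8066 bp of exon against 3651 bp over all tested genes and a median span of 139.4 kb against 22.5 kb. Among genes with at least 5 kb of exon, 9 of 20 members were under 0.5 times in male A, against 16.9% of all tested genes of that length. Below 5 kb of exon 4 of 9 members were, against 8.42%. Among genes spanning at least 100 kb the count was 9 of 19, against 22.7%, and among those spanning less 4 of 10, against 9.2%.

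**Figure D4:**
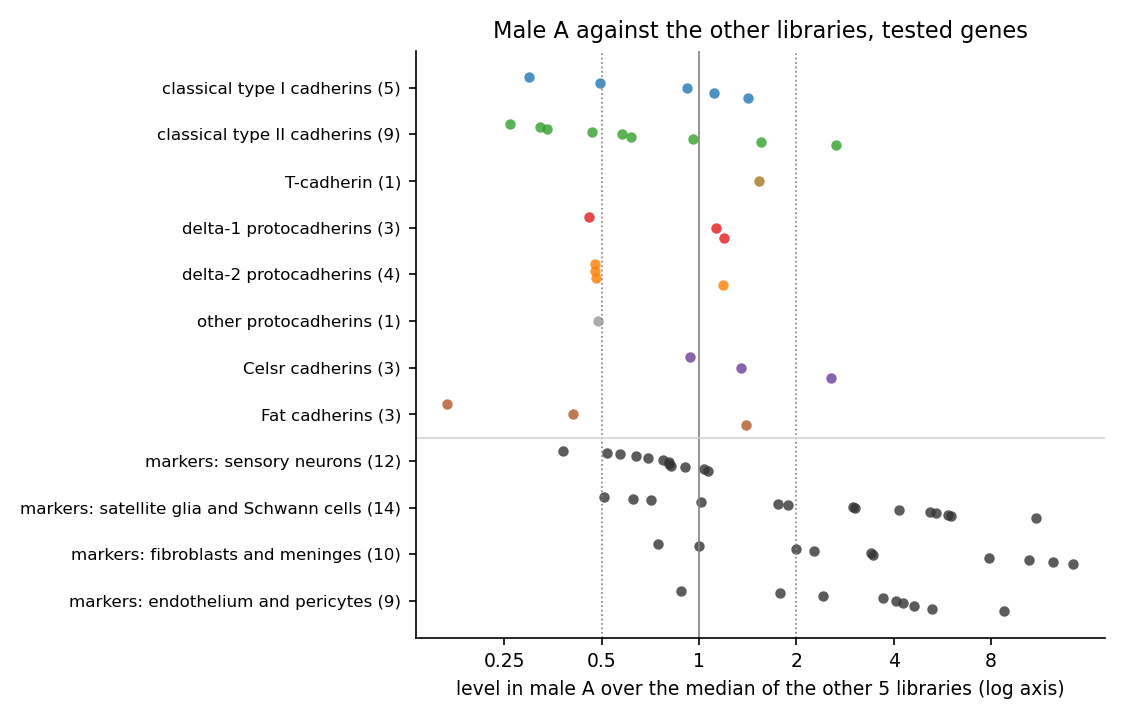
Level in male A divided by the median of the other 5 libraries (log axis; dotted lines at 0.5 and 2) for the 29 tested members by subfamily and, below the grey line, for the tested marker genes of 4 cell types, with the number of genes in brackets. Members reached from 0.166 (Fat3) to 2.65 (Cdh20), and most glial, fibroblast and endothelial markers lay right of 2.

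The sexes were compared with edgeR's quasi-likelihood test over all 14958 genes, with the change as log2 female minus male. No difference between the sexes was detected for any of the 29 tested members. Adjusted p was under 0.05 for 0 of 29 members and for 0.0267% of the tested genes, 4 in all. Unadjusted p was under 0.05 for 0 of 29 members and for 4.42% of the tested genes. The levels of the sexes did not overlap for 0 of 29 members and for 8.06% of the tested genes. Of the 4 untested members, Pcdh20 was lower in all 3 female libraries, at 0 to 0.0523 RPKM, than in the males, at 0.0732 to 0.329 RPKM. DESeq2 and limma voom also called 0 members. Their unadjusted p was under 0.05 for 2 members each, and for 849 and 671 of the 14958 genes. In edgeR's test without male D it was for 5 of 30 members and 1795 of 15372 genes. Without female A it was for 5 of 31 members and 1110 of 15342 genes, and with RLE size factors for 0 members. Of the 29, 15 were higher and 14 lower in females, with a median log2 change of 0.06.

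The smallest p belonged to Cdh10, with a log2 change of -0.65 (SE 0.30), a mean of 1.21 RPKM in females and 1.90 RPKM in males, and an adjusted p of 0.961 in edgeR's quasi-likelihood test with Benjamini-Hochberg adjustment. The largest changes were those of Cdh13, -0.78 (SE 0.39), and Cdh3, 1.71 (SE 0.88). Without female B, the library with 4.44 RPKM, the log2 change of Cdh3 was 0.19. X-linked Pcdh19 had a log2 change of 0.24 (SE 0.35). Standard errors of the members ranged from 0.23 to 0.88. With 3 libraries a sex, changes well above these errors could also go undetected. That of Cdh10, -0.65 with an SE of 0.30, was not called.

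**Figure D5:**
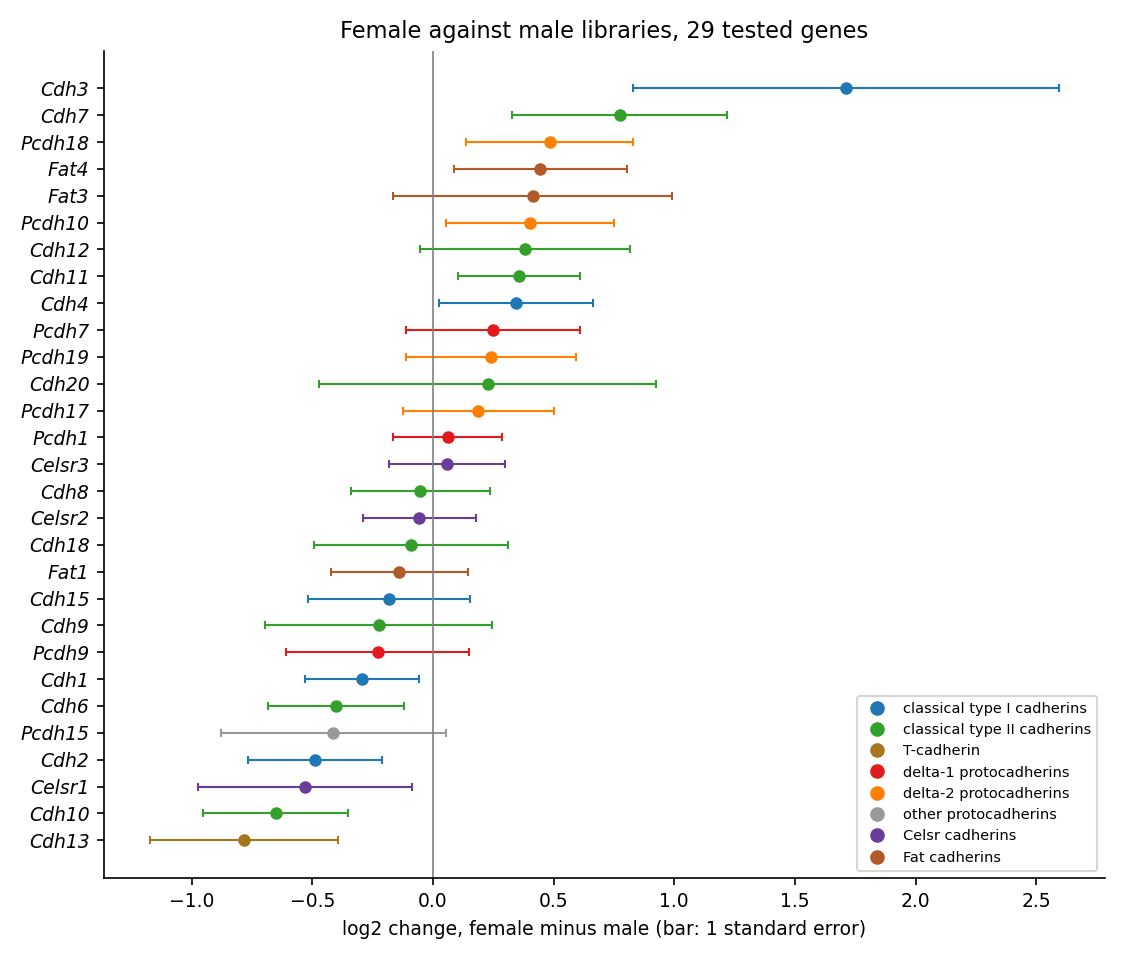
Log2 change between female and male libraries (horizontal axis, females higher to the right) with 1 standard error for the 29 tested genes, coloured by subfamily. Changes ran from -0.78 (Cdh13) to 1.71 (Cdh3), and no gene passed the threshold.

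Females B and C also differ from the other 4 libraries in their records, where the stage is given under another tag, and in holding 1 embryo each. Sex, number of embryos and record form cannot be told apart for them beyond the single other female library. With sex as a term, edgeR's quasi-likelihood test with Benjamini-Hochberg adjustment called 0 of 29 members and 0.0% of the tested genes between these 2 libraries and the other 4. Unadjusted p was under 0.05 for 2 members and for 3.23% of the tested genes. These were the type I genes Cdh2, with a log2 change of -0.92 (SE 0.27), and Cdh1, with -0.66 (SE 0.27). Their adjusted p was 1.00 in the same edgeR test. Both libraries lay below all of the other 4 for 5 of 29 members (Cdh1, Cdh2, Cdh10, Cdh13 and Fat1), against 10.3% of the tested genes. They lay above for 1 of 29 (Cdh7), against 11.3%. This comparison was chosen after the values were seen. Within the 4 other libraries, the log2 change of Cdh2 between the sexes was 0.055, against -0.49 over all 6.

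Of 13 catenin and junction linker genes 12 were tested and 0 called between the sexes by edgeR's test. Ctnna2, the neuronal alpha-catenin, led at 69.1 ± 14.2 RPKM, followed by Ctnna1 at 53.6 ± 8.75 RPKM and Ctnnb1, beta-catenin, at 33.6 ± 2.84 RPKM. Ctnna2 was at 41.2 RPKM in male A and at 69.8 to 80.6 RPKM elsewhere, while Ctnna1, the form of epithelial and other non-neuronal cells, was highest in male A at 68.7 RPKM. Beta-catenin, which every classical cadherin binds, varied between 28.4 and 36.6 RPKM.

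Of 11 genes of the WAVE complex and its partners 9 were tested and 0 called. Brk1 was at 258.7 ± 55.8, Cyfip2, a neuronal subunit, at 65.0 ± 15.7 and Abi1 at 41.5 ± 10.9 RPKM. Of 10 genes of the proteases that cut cadherins 9 were tested and 0 called. The gamma-secretase subunit Ncstn was at 49.5 ± 9.55 RPKM and the sheddase Adam10 at 36.3 ± 12.8 RPKM.

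Partners of Celsr and Fat proteins were lower. Of 10 planar polarity genes 10 were tested and 0 called, led by the cytoplasmic mediator Dvl3 at 5.03 ± 0.914, the receptor Fzd3 at 3.67 ± 0.677 and the membrane protein Vangl1 at 3.24 ± 0.647 RPKM. Of 6 matched Fat partners 6 were tested and 0 called, led by Enah at 3.92 ± 1.05, Atn1 at 2.48 ± 0.645 and Mpdz at 2.15 ± 0.680 RPKM.

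Of 22 matched other genes of the superfamily, 8 were tested and 0 called. Cdh19, a type II cadherin used as a Schwann cell precursor marker, was the highest at 3.77 ± 1.23 RPKM. Male A, at 4.38 RPKM, lay within the 1.53 to 4.84 RPKM of the other libraries. Cdhr1, known from photoreceptors, followed at 2.23 ± 0.457 RPKM and Pcdh11x, a delta-1 protocadherin of the X chromosome, at 1.63 ± 0.693 RPKM. Dsc1 and Dsg4, desmosomal cadherins of skin, had 0 counts in all 6 libraries.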

How the data were processed

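Levels and comparisons come from 6 gene count files, 1 per library. Per the submitters' processing notes, Subread (its version is not stated there) and featureCounts 1.4.5 were used with GRCm38.p2. The labels and headers read here do not state how strand or multi-mapped reads were treated. The authors deposited raw counts per Ensembl gene, with CPM and RPKM columns that per the file headers sit beside them. The deposited CPM and RPKM differed from values recomputed from counts and lengths by at most 4.55e-11 and 6.37e-12. Only counts and lengths were used, and all rows name a gene.

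The sexes were compared with edgeR 4.0.16 in R 4.3.3 (glmQLFit, glmQLFTest, TMM, filterByExpr on sex, 14958 genes, Benjamini-Hochberg adjusted p under 0.05). The biological coefficient of variation was 31.1%. TMM factors ranged from 0.922 to 1.08. RPKM here is counts over TMM-scaled library size and file length, and log2 CPM used a prior count of 2. A member was called absent with fewer than 3 counts in every library. The tests were tested on simulated data with known changes. No pair of libraries agreed within sampling noise.

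Members and lists were chosen with earlier results of these data known. Every member was named; those with a mean of at least 1 RPKM, or under 0.5 or over 2 times the other libraries in male A, were given in every library, with the 3 highest genes of each partner list and the 2 highest of each marker list; 1 gene that this rule names is not reported here. Of 41388 identifiers 40254 carried a symbol; Dchs2 and Pals1 did not match. Of the members, 7 share exon bases with another gene by the exon positions in the count files, from 23 bp (Cdh8) to 1209 bp (Fat4). How reads in the shared bases were assigned is not known here. Alternatives were RLE, upper quartile and plain totals, other filters, DESeq2 1.42.0, limma 3.58.1 voom, leaving out libraries, replicate letter or record set as a term, and TPM, CPM or M21 lengths for levels.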

Additional observations from a re-analysis of the deposited data

Results flagged for a closer look

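For 38 series of values of genes and subfamily sums, the highest or lowest of the 6 libraries was set against the others. The measure was the gap to its neighbour over the whole range, and 2 of the 38 series stood apart. Not all 33 genes were among these series. Pcdh20 and Cdh22, which did not pass the filter on low counts, were not flagged. Pcdh20 was at 0.329 RPKM in male A and at 0 to 0.121 RPKM in the other 5 libraries. Cdh22 had its only count in male C. Chance flags about 1 in 20 such groups. Cdh3 was at 4.44 RPKM in female B and at 0.214 to 1.11 RPKM in the other 5 libraries, a gap of 0.787 of the range. Celsr1 was at 0.600 RPKM in male A and at 0.217 to 0.264 RPKM elsewhere, a gap of 0.876 of the range. Markers of glia, fibroblasts and endothelium were also high in male A, and their part in the Celsr1 level was not tested.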

How the results depend on the processing

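The count of members called between the sexes stayed at 0 in all 17 alternatives, with a smallest adjusted p of 0.285, and at 0 in all 10 between the record forms, with a smallest adjusted p of 0.0624. Log2 changes between the sexes changed sign in at least 1 alternative for 23 of 29 members, for 2 of them by scaling. Over all genes, 4 called between the sexes became 14 with no filter, 13 with DESeq2, 1 with limma voom and 0 with record set as a term or within record set 1. Leaving out 1 library gave 0 (without female A) to 5. Between record forms, 0 genes became 3 with no term for sex, 115 in females only and 3 with no filter. With the replicate letter as a block, 77 genes and 0 members were called with 1 residual degree of freedom. Same-lettered libraries had correlations of -0.08 (A) and 0.05 (C) in their deviations from the mean of their sex. Differently lettered libraries were not compared, so these values cannot decide whether the letters pair the samples. The log2 change of Cdh3 became -0.091 in the block fit, and that of Cdh2 became 0.057 with record set as a term and 0.055 within record set 1; the causes were not tested. Without division by length the classical share was 59.9%, type II 36.0%, delta-1 14.6% and delta-2 11.4%, and with M21 lengths type I was 31.4% and type II 36.6%. Leaving out 1 library, or male A and female B together, moved no share by more than the SD. Leaving out 1 library, added after the data were seen, put 5 to 8 members below the all-gene median SD. Under a limit of 0.1 CPM 1 member was low in place of 3. Plain totals moved the all-gene median log2 change by -0.11. Depth limits Cdh22, Cdh24, Pcdh8 and Pcdh20 most.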

Other observations

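The members are unevenly spread over the genome (GRCm38, spans as in the count files). Chromosome 8 holds 7 of the 33 (Fat1, Cdh8, Cdh11, Cdh3, Cdh1, Cdh13 and Cdh15), chromosome 15 holds 6 (Cdh6, Cdh9, Cdh10, Cdh12, Cdh18 and Celsr1) and chromosome 14 holds 5 (Cdh24, Pcdh8, Pcdh17, Pcdh20 and Pcdh9). Cdh3 and Cdh1 are the closest pair, 46.4 kb apart, yet Cdh1 was 2.52 times as high as Cdh3 in female B and 55.2 times as high in male A. Levels also differed among neighbours on chromosome 14, where Pcdh20, at 0.0991 RPKM, lies 4.54 Mb from Pcdh9, at 25.6 RPKM, and 3.93 Mb from Pcdh17, at 5.86 RPKM.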
